A study of Mus musculus with 24 samples.

Results

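Histone acetyltransferases place acetyl groups on histone tails and on many other proteins, and 10 genes that encode them were followed in sorted dermal papilla (DP) cells, the dermal signalling centre at the base of the hair follicle. The 10 genes are Ep300, Crebbp, Kat2a, Kat2b, Kat5, Kat6a, Kat6b, Kat7, Kat8 and Hat1, found by their symbols among the 25755 genes of the tables, and all 10 passed the filter on low values (a mean of 10 or more normalized reads) in every comparison. RNA was sequenced from DP cells of 3 control and 3 dM1/2 mice at each of postnatal day (P) 20, 24, 28 and 60, which gave 24 libraries in 8 groups. P24 and P28 fall in anagen (growth of the follicle) and P20 and P60 in telogen (rest).

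The dM1/2 mice carried Corin-Cre (Cor-cre/+), which is active in the DP, with both alleles of Hdac1 and both alleles of Hdac2 floxed (Hdac1Flox/Flox and Hdac2Flox/Flox). Controls carried Cor-cre/+ as well. Their floxed alleles varied: Hdac1Flox/+, Hdac2Flox/+, both of these, or either gene Flox/Flox with the other Flox/+. Which of these each control library had was not given in the sources used here, so a control library could lack one of the deacetylases in its DP. The cells were sorted and re-sorted from back skin of single mice by a reporter that Cre switches on. According to the study's methods, P20 mice were female and anagen mice male. Xist and the Y-linked Ddx3y, read as a check of the mouse libraries, placed P60 with P20, so that sex moved with stage in all 24 libraries. Within an age both genotypes had the same sex.

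Acetyltransferases and deacetylases oppose each other on chromatin. Acetylation loosens the hold of histone tails on DNA and is bound by bromodomain proteins, and deacetylases such as Hdac1 and Hdac2 remove the mark. The enzymes fall into families: p300 and CBP are large coactivators of many transcription factors, GCN5 and PCAF are the catalytic subunits of the SAGA and ATAC complexes, the MYST enzymes work in several scaffolded complexes, and the type B enzyme Hat1 acetylates newly made histones before they are laid onto DNA.

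The values are read counts per gene divided by a size factor of the library, here called normalized reads. Reads on genes ranged from 8171944 to 49331751 per library, and the telogen libraries were the shallower ones. All 14 DP markers looked for had reads. Their summed level ran from 309888 to 388576 normalized reads in P24 controls and from 146951 to 196460 in P24 dM1/2, and from 138509 to 379304 in P28 controls and from 99304 to 122690 in P28 dM1/2. The summed level of 6 markers of other fibroblasts ran from 4535 to 60769 in P28 controls and from 10978 to 17770 in P28 dM1/2. At P24 these ranges were 7342 to 32294 in controls and 8324 to 13083 in dM1/2. In telogen the DP markers were lower and the fibroblast markers mostly higher. DP sums were 35838 to 40498 in P20 controls and 48027 to 58789 in P20 dM1/2, and 31702 to 37184 and 22706 to 41131 at P60. Fibroblast sums were 52420 to 85332 in P20 controls and 36276 to 49687 in P20 dM1/2, and 78716 to 95346 and 77764 to 168230 at P60. Genotypes did not overlap in either sum at P20, and fibroblast sums exceeded DP sums in every P60 library. At P20 they did so in every control and in dM1/2 2, but not in dM1/2 1 and 3. Summed markers of keratinocytes, immune cells, muscle, melanocytes and Schwann cells stayed at or below 1394 in every library. Those of endothelial cells reached 6059 and those of the dermal sheath 9581. Krt6a, Krt17, Tyrp1, Cd52, Pax7 and Myod1 were without a read in at least 1 group. Vcan alone averaged 168490 in P24 controls. Among DP markers 1 was higher and 9 lower in dM1/2 at P24 (adjusted p under 0.05, limma), and 2 and 6 at P28. The study describes Corin as specific to anagen DP cells and found less Fgf7 and Fgf10 in mutant DP by in situ hybridization. The sums thus do not separate marker levels within DP cells from the share of DP cells. The part of other cells in the results below was not tested.

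Hdac1, one of the floxed genes, had 675, 668 and 668 normalized reads in the P24 controls and 209, 188 and 116 in P24 dM1/2. At P28 the controls had 214, 529 and 105 and the dM1/2 libraries 190, 149 and 126, so that the groups overlapped, with control 1 just above the highest and control 3 below the lowest dM1/2 library. At P60 the groups overlapped too, with 506, 360 and 376 in controls and 371, 347 and 318 in dM1/2, and at P20 they did not (375, 511 and 505 against 216, 370 and 270). Hdac2 libraries of dM1/2 all lay above the controls at P24 and overlapped with them at the other ages, with a mean of 1054 ± 77.4 (SD, n = 3) normalized reads in P28 controls and 1174 ± 72.6 in P28 dM1/2. These counts cover whole genes, and reads from exons outside the deleted part check nothing. The study itself scored the deletion by immunostaining for both proteins. In mid-anagen of the first cycle it found only a few positive cells in the mutant DP. It also reported slightly more chromatin acetylation in mutant DP cells, to a like degree in the first and second cycles. The P28 controls also differed most among themselves, with a chi-square per gene between pairs from 382 to 1579 against 73.5 to 142 in P28 dM1/2. The largest value was that of controls 2 and 3. Because of their low Hdac1, results at P28 are also given without controls 1 and 3, a choice made after seeing the data. Control 2, the one kept, had 46.7% of its reads in its top 10 genes, against 28.8% and 13.6% in controls 1 and 3. Each library is a pool of cells, so fewer cells that express a gene and less RNA per cell cannot be told apart.

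Sequence before an annotated RefSeq start is shown for 3 members that moved in opposite directions: the paralogs Kat2a, which rose in dM1/2 at P28, and Kat2b, which fell at both anagen ages, and Kat6b, which fell at both as well. Each is the 250 bases before the first RefSeq start listed (GRCm38.p6), 5′ to 3′ on the gene's strand, in lower case, with CCAAT boxes (CCAAT or its reverse complement) and E2F words (TTTCCCGC, TTTGGCGC, TTTCGCGC or TTTGCCGC, either strand) in capitals. The Kat2a window is chr11:100712468-100712717 (minus strand), that of Kat2b chr17:53566721-53566970 (plus strand) and that of Kat6b chr14:21499520-21499769 (plus strand). Kat2b and Kat6b each have a second listed start, which is not shown. In GENCODE the Kat2b window runs past the gene start, with 55 bases in exons, and the Kat6b window lies inside the gene.
Kat2a: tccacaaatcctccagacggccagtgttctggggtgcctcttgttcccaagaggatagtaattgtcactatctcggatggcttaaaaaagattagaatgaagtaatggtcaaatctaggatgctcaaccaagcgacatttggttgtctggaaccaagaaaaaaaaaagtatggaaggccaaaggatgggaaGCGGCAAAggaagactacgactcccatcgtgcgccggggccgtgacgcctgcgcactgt
Kat2b: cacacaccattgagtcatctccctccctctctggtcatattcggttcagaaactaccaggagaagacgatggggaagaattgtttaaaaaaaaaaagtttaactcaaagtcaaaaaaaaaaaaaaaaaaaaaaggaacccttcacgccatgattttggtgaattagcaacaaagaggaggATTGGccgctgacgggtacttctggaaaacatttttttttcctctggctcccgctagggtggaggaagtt
Kat6b: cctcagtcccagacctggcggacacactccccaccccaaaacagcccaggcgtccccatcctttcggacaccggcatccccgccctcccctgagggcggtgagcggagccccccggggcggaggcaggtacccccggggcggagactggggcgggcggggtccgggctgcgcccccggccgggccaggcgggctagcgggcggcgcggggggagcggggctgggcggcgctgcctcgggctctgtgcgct

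The windows differed in base composition. The Kat6b window had 78.8% G and C with 27 CpG dinucleotides, against a median of 52.4% and 6 over 32817 promoter windows of this length, whereas Kat2a had 48.8% and 11 and Kat2b 40.8% and 6. Kat2a held 1 E2F word, which 1.86% of all windows have, and Kat2b held 1 CCAAT box, which 33.8% have. The Kat6b window held neither of these words but 8 matches to the GC box GGGCGG, found on either strand in 32.7% of windows. The window before the Hat1 start held 1 CCAAT box and no E2F word. It is not shown because all of its 250 bases lie in annotated exons of Hat1. RefSeq windows were found for 9 of the 10 members, all but Kat6a. The cAMP response element TGACGTCA (1.55% of windows) and the CHR word TTTGAA (16%) were in none of the 3 windows shown. The second Kat2b window held 1 CHR word and no CCAAT box. These matches describe letters in the windows and nothing more.

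In controls, the members spanned a wide range of levels per exon length. At P24 the mean level was highest for Crebbp with 324 ± 62.6 normalized reads per kb of exon (SD, n = 3), followed by Kat6a with 291 ± 51.8, Kat6b with 216 ± 62.7, Ep300 with 212 ± 50.03 and Kat7 with 200 ± 14.7. Kat2b had 153 ± 11.4, Kat2a 129 ± 6.33, Hat1 100 ± 22.9, Kat5 87.7 ± 4.98 and Kat8 45.1 ± 4.34. In this order, the ranges of 1 SD around the mean overlapped between all neighbours except Kat7 and Kat2b, Kat2b and Kat2a, and Kat5 and Kat8. The median gene tested had 78.0 normalized reads per kb, so that Kat8 alone among the 10 lay below it. All 10 members together summed to 1757 ± 259 normalized reads per kb in P24 controls and 1559 ± 124 in P24 dM1/2, and to 1615 ± 41.1 in P28 controls and 1301 ± 109 in P28 dM1/2. At P28 the ranges of these sums did not overlap.

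**Figure D1:**
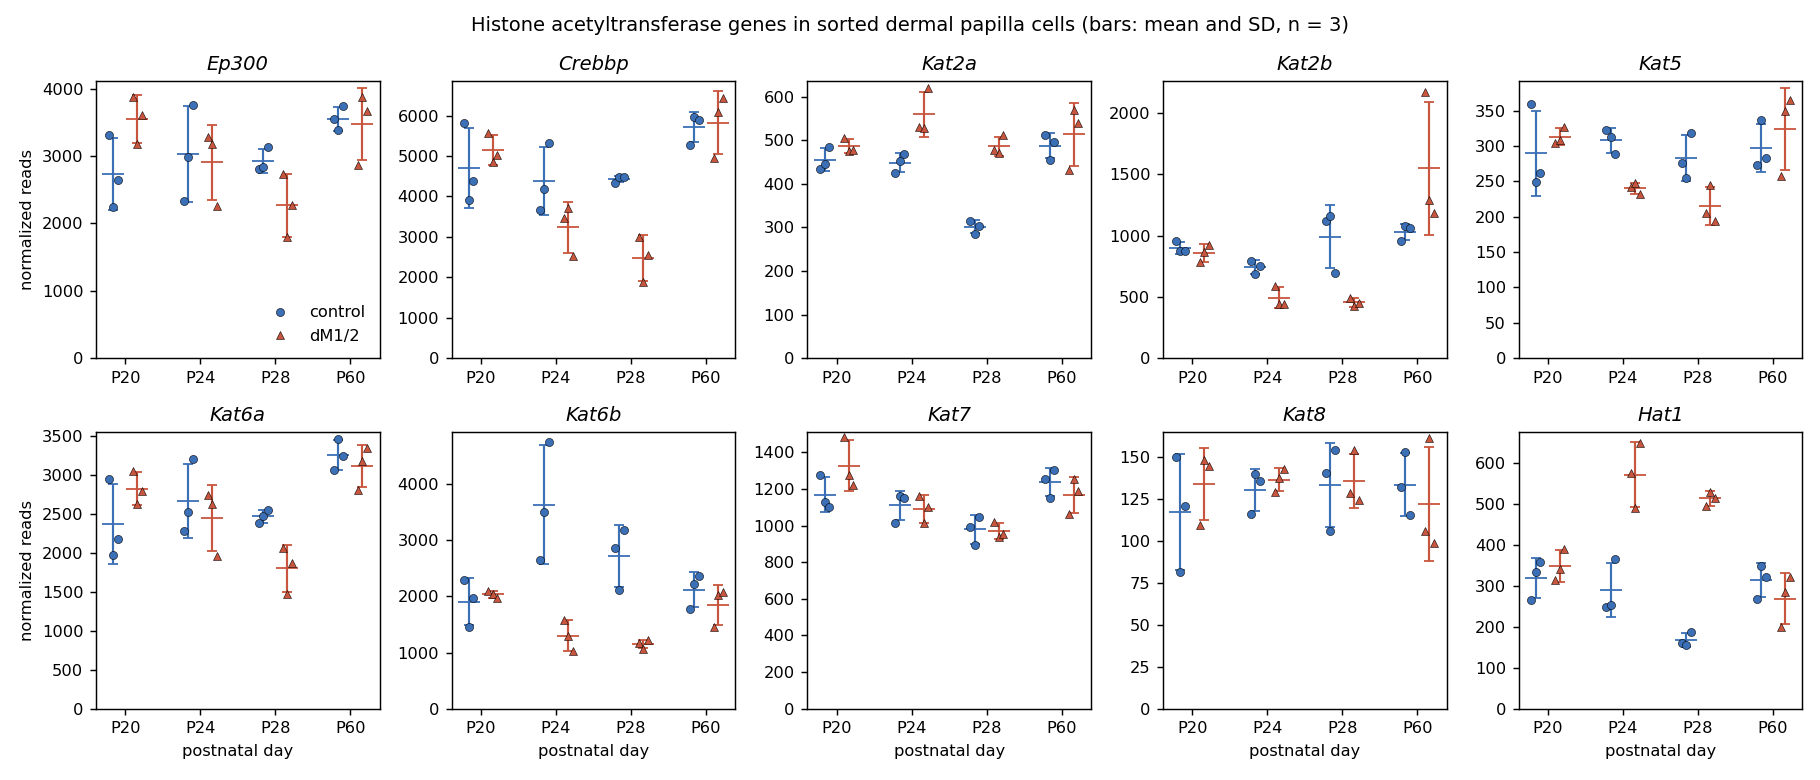
Normalized reads (vertical axes, from 0) of the 10 members in each of the 24 libraries by postnatal day, with controls as blue circles and dM1/2 as red triangles, and bars for the mean and SD of 3 libraries. Hat1 lies above and Kat6b below every control library in dM1/2 at P24 and P28, while the genotypes lie together at P20 and, except for Kat2b, at P60.

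Across the 4 ages in controls, 3 of the 10 members varied (Kat2a, Kat6b and Hat1, limma's F test over 12 libraries), where 49% of 14066 genes did. Kat2a averaged 455 ± 26.5 normalized reads in P20 controls, 448 ± 22.0 in P24 controls and 488 ± 29.3 in P60 controls, against 301 ± 15.1 in P28 controls (SD, n = 3), so that every P28 control lay below every other control (adjusted p = 0.00192). Hat1 averaged 320 ± 48.6, 289 ± 66.0, 168 ± 17.2 and 314 ± 41.5 at P20, P24, P28 and P60, again lowest at P28 (adjusted p = 0.00686). Kat6b went the other way, from 1903 ± 421 at P20 to 3632 ± 1055 at P24, 2720 ± 552 at P28 and 2120 ± 307 at P60 (adjusted p = 0.0312), and it lost the threshold without any of 7 single control libraries, with adjusted p then from 0.0507 to 0.0844. Others passed with single alternatives: Kat2b without P28 control 3 (adjusted p = 0.00571), Kat6a without P20 control 1 (0.0229), and Kat7 with DESeq2 (0.0342) and after the adjustment for exon length given below (0.0471). Which neighbouring ages differed was not tested. Sex, depth and the marker sums moved with stage here.

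Comparing dM1/2 with control within an age asks which of these enzymes changed when the opposing deacetylases were removed. At P20 no member passed the threshold (adjusted p under 0.05 over all genes tested), as 0.433% of 13845 genes did. Here 1 member had an unadjusted p under 0.05 with limma, and edgeR and DESeq2 also called none. The 10 differences at P20 lay between -0.07 (Kat2b) and 0.39 (Ep300) on the log2(normalized reads + 1) scale. Without P20 control 1, which has the highest Ep300 and Kat6a among the P20 controls, Ep300 (0.54, adjusted p = 0.0338) and Kat6a (0.44, adjusted p = 0.0411) were called higher. At P24, 3 members were called (2 lower, 1 higher), where 26.6% of 14028 genes were called, 14.8% higher and 11.8% lower. At P28, 6 members were called (4 lower, 2 higher), where 35.5% of 14126 genes were called, 20% higher and 15.6% lower. At P60 no member and no gene was called (0% of 14042). There, no member had an unadjusted p under 0.05 with limma, while 525 genes did, and DESeq2 called 26 genes and no member, edgeR none. The median difference over the 10 members was -0.09 at P24 and -0.39 at P28, beside -0.01 and 0.00 over all genes.

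**Figure D2:**
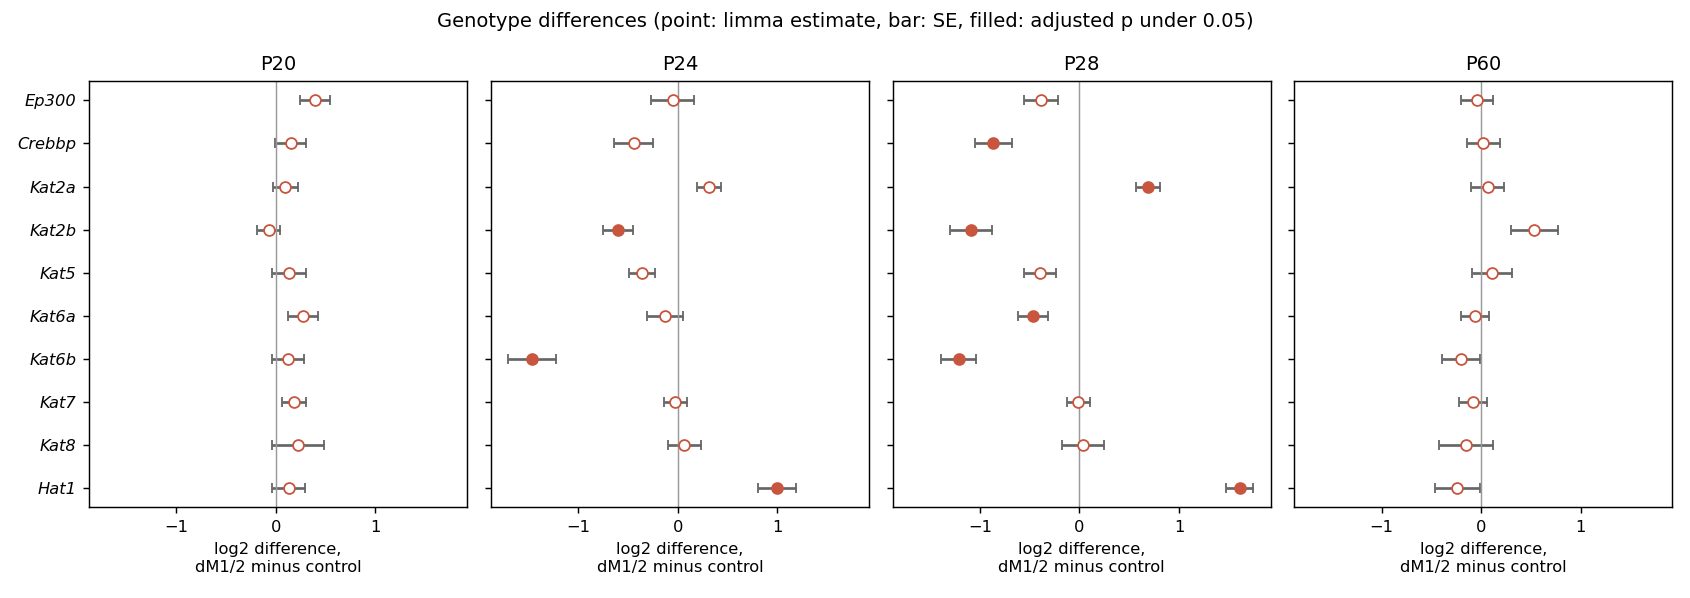
Log2 difference of dM1/2 minus control (horizontal axes) of the 10 members at each age, as limma's estimate with its SE, filled where the adjusted p over all genes is under 0.05. Filled points appear at P24 (3) and P28 (6) and at neither telogen age. Of all genes tested, 26.6% were called at P24 and 35.5% at P28.

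In the p300/CBP family Crebbp was called lower at P28, and Ep300 had a smaller difference of the same sign that missed the threshold. Crebbp (ENSMUSG00000022521, chromosome 16, 4081328 to 4213997, minus strand, GRCm38) encodes CBP, a coactivator that acetylates histones at promoters and enhancers. It had 4344, 4481 and 4476 normalized reads in the P28 controls and 3005, 1882 and 2542 in P28 dM1/2, a log2 difference of -0.87 (SE 0.18, adjusted p = 0.0113, limma). Every P28 dM1/2 library lay below every control. At P24 the controls had 3663, 4172 and 5318 and the dM1/2 libraries 3462, 3715 and 2520, which overlapped, with a log2 difference of -0.44 (SE 0.20, adjusted p = 0.140). At P20 and P60 the differences were 0.15 (SE 0.15) and 0.02 (SE 0.16).

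Ep300 (ENSMUSG00000055024, chromosome 15, 81585351 to 81652077, plus strand) encodes p300, the close relative of CBP, and the annotation places a miRNA gene, Gm23880, within its exons. Its P28 controls had 2806, 2830 and 3133 normalized reads and the P28 dM1/2 libraries 2734, 1804 and 2270, which did not overlap, but the log2 difference of -0.38 (SE 0.17) missed the threshold (adjusted p = 0.125). Without P28 dM1/2 1 it passed (-0.53, adjusted p = 0.0482). At P24 the difference was -0.05 (SE 0.21).

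Since Ep300 and Crebbp varied together from library to library (Pearson r = 0.86 over 24 libraries, which share groups and library properties), their ratio within a library was also read. Crebbp to Ep300 was 1.46 ± 0.0961 in P24 controls and 1.11 ± 0.0585 in P24 dM1/2, and 1.52 ± 0.0809 and 1.09 ± 0.0399 at P28 (SD, n = 3). It was 1.72 ± 0.0571 and 1.45 ± 0.0704 at P20. Every dM1/2 library lay below every control at these 3 ages, and the exact two-sided permutation test gave p = 0.1 at each, the smallest that 3 against 3 allow (adjusted p = 0.171 over 12 tests). At P60 the ratios overlapped, 1.61 ± 0.138 in controls and 1.68 ± 0.0999 in dM1/2 (exact p = 0.7). With both anagen ages together and the genotype permuted within each age, a test added after seeing the data, the mean log2 ratio was lower by -0.44 (exact p = 0.005, the smallest of 400 arrangements, and 0.01 adjusted over 6 tests). As every dM1/2 library already lay below every control at both ages, this p was fixed in advance and adds no support. Over both telogen ages it was -0.09 (exact p = 0.245).

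In the GCN5/PCAF family the paralogs moved apart. Kat2a (ENSMUSG00000020918, chromosome 11, 100704746 to 100712465, minus strand) encodes GCN5. It had 315, 285 and 303 normalized reads in the P28 controls and 478, 470 and 511 in P28 dM1/2, a log2 difference of 0.69 (SE 0.12, adjusted p = 0.00534). The P28 dM1/2 mean of 486 ± 21.5 was close to the telogen levels of both genotypes, which ranged from 455 to 513 in their means, and the P28 controls stood apart from these. At P24 controls had 424, 452 and 468 and dM1/2 libraries 529, 529 and 619, which did not overlap, with a log2 difference of 0.32 (SE 0.12, adjusted p = 0.0976). A single fit over all 24 libraries called this P24 difference (adjusted p = 0.0410).

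Kat2b (ENSMUSG00000000708, chromosome 17, 53566861 to 53672720, plus strand) encodes PCAF, which takes the place of GCN5 in these complexes. It had 797, 686 and 750 normalized reads in the P24 controls and 591, 446 and 444 in P24 dM1/2, a log2 difference of -0.60 (SE 0.15, adjusted p = 0.0231). At P28 the controls had 1123, 1158 and 697 and the dM1/2 libraries 492, 422 and 450, a log2 difference of -1.09 (SE 0.21, adjusted p = 0.00818). Every dM1/2 library lay below every control at both ages. The P24 call was lost without control 1, control 2, dM1/2 2 or dM1/2 3 (adjusted p then from 0.0543 to 0.0770). The low control of P28, control 3, also had the lowest summed fibroblast markers of that group (4535, beside 34510 and 60769 in controls 1 and 2).

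At P60 Kat2b went the other way without passing the threshold. Controls had 957, 1082 and 1058 normalized reads and dM1/2 libraries 2174, 1292 and 1186, which did not overlap (log2 difference 0.53, SE 0.23, adjusted p = 0.986). The high library, dM1/2 1, also had the highest summed fibroblast markers at P60 (168230, beside 95346 or less in the other 5 libraries). The part of these markers in the Kat2b values was not tested.

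The ratio of Kat2b to Kat2a was 1.66 ± 0.187 in P24 controls and 0.893 ± 0.204 in P24 dM1/2, and 3.30 ± 0.905 and 0.936 ± 0.0812 at P28 (SD, n = 3). Every anagen control thus held more Kat2b than Kat2a reads. The dM1/2 means lay below 1, though dM1/2 1 had 1.12 at P24 and 1.03 at P28. The ratio is not scaled to exon length (4867 bases for Kat2b and 3480 for Kat2a), so 1 does not mark equal amounts. The exact permutation test gave p = 0.1 at each anagen age (adjusted p = 0.171), and over both anagen ages the log2 ratio was lower by -1.35 (exact p = 0.005, adjusted p = 0.01). The genotypes were apart at both anagen ages, so the p over both was again fixed in advance. At P20 the ratios were 1.98 ± 0.2 and 1.77 ± 0.199, and at P60 2.12 ± 0.253 and 3.17 ± 1.61, which overlapped at both ages (exact p = 0.4 at each).

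**Figure D3:**
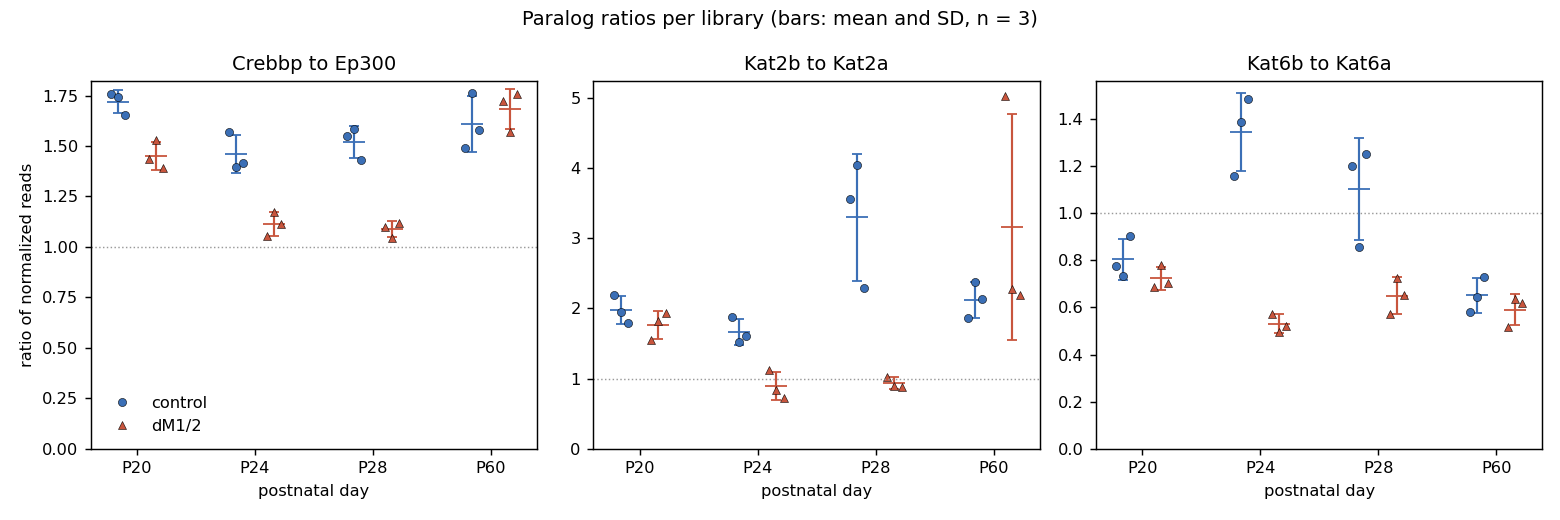
Ratio of normalized reads (vertical axes, from 0) of Crebbp to Ep300, Kat2b to Kat2a and Kat6b to Kat6a in each library by postnatal day, controls as blue circles and dM1/2 as red triangles, with bars for the mean and SD of 3 libraries and a dotted line at 1. At P24 and P28 every dM1/2 library lies below every control in all 3 ratios, and at P60 the genotypes overlap in all 3.

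Kat6b, of the MYST family, fell at both anagen ages. Its difference was larger than that of Kat2b at P28 with all libraries, and smaller after the length adjustment (-0.94 against -1.10) and without P28 controls 1 and 3 (-0.87 against -1.35). Kat6b (ENSMUSG00000021767, chromosome 14, 21481434 to 21672478, plus strand) encodes MORF, which works in a complex with BRPF scaffold proteins. It had 2648, 3501 and 4745 normalized reads in the P24 controls and 1573, 1296 and 1025 in P24 dM1/2, a log2 difference of -1.46 (SE 0.24, adjusted p = 0.00525). At P28 the controls had 2858, 2112 and 3190 and the dM1/2 libraries 1178, 1071 and 1218, a log2 difference of -1.22 (SE 0.17, adjusted p = 0.00246). No dM1/2 library reached the lowest control at either age. Its control level rose in anagen, as given above, and the anagen dM1/2 libraries, with means of 1298 ± 274 and 1156 ± 76.0, lay with 1 exception below all 12 telogen libraries, whose lowest values were 1447 and 1453. At P20 and P60 the differences were 0.12 (SE 0.16) and -0.21 (SE 0.19).

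Kat6a (ENSMUSG00000031540, chromosome 8, 22859535 to 22943259, plus strand) encodes MOZ, the closest relative of MORF. At P28 its controls had 2378, 2469 and 2552 normalized reads and the dM1/2 libraries 2059, 1476 and 1864, which did not overlap (log2 difference -0.47, SE 0.15, adjusted p = 0.0470). This call stood just inside the threshold. It was lost with edgeR under both scalings (adjusted p = 0.0730 and 0.0562) and without any of 5 of the 6 libraries. At P24 the libraries overlapped, with a difference of -0.13 (SE 0.18). The ratio of Kat6b to Kat6a was 1.34 ± 0.166 in P24 controls and 0.530 ± 0.0404 in P24 dM1/2, and 1.10 ± 0.215 and 0.651 ± 0.0768 at P28, without overlap (exact p = 0.1 at each age). Without P28 controls 1 and 3 the log2 difference of this ratio at P28 was -0.40 in place of -0.75. Over both anagen ages the log2 ratio was lower by -1.04 (exact p = 0.005, adjusted p = 0.01), and over both telogen ages by -0.15 (exact p = 0.115). The anagen p was fixed in advance here too, by the separation at each anagen age.

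Kat5 (ENSMUSG00000024926, chromosome 19, 5603014 to 5610237, minus strand) encodes TIP60, the catalytic subunit of the NuA4 complex. It had 323, 312 and 289 normalized reads in the P24 controls and 241, 247 and 232 in P24 dM1/2, which did not overlap, with a log2 difference of -0.36 (SE 0.13, adjusted p = 0.0767). DESeq2 (-0.37, adjusted p = 0.0336) and limma after the length adjustment (-0.37, adjusted p = 0.0467) called this difference. At P28 the controls had 275, 255 and 318 and the dM1/2 libraries 206, 245 and 194, again without overlap (-0.40, SE 0.16, adjusted p = 0.102), and a single fit over all 24 libraries called it (adjusted p = 0.0495). The exons of Kat5 overlap those of Rnaseh2c on the opposite strand. The strand setting of the counting is not given in the sources used here, so its reads are uncertain.

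Kat7 and Kat8 passed the threshold in no comparison of the genotypes within an age. Kat7 (ENSMUSG00000038909, chromosome 11, 95274259 to 95310246, minus strand) encodes HBO1, an acetyltransferase of replication origins, and averaged 979 ± 77.4 normalized reads in P28 controls and 970 ± 43.8 in P28 dM1/2 (log2 difference -0.01, SE 0.11, and -0.02, SE 0.12, at P24). Kat8 (ENSMUSG00000030801, chromosome 7, 127912516 to 127925837, plus strand) encodes MOF of the MSL and NSL complexes, and averaged 133 ± 24.9 and 136 ± 15.96 at P28 (log2 difference 0.04, SE 0.21). The exons of Kat8 overlap those of Prss8 on the opposite strand, so its reads are uncertain too.

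Hat1 rose at both anagen ages. Hat1 (ENSMUSG00000027018, chromosome 2, 71388958 to 71441622, plus strand) encodes the type B enzyme that acetylates new histone H4 in complex with the histone chaperone Rbbp7. It had 249, 254 and 366 normalized reads in the P24 controls and 577, 491 and 650 in P24 dM1/2, a log2 difference of 0.995 (SE 0.19, adjusted p = 0.00918). At P28 the controls had 161, 156 and 188 and the dM1/2 libraries 496, 531 and 516, a log2 difference of 1.61 (SE 0.14, adjusted p = 0.000468). Every dM1/2 library lay above every control at both ages and above every telogen library of either genotype, whose highest value was 390. At P20 and P60 the differences were 0.13 (SE 0.17) and -0.24 (SE 0.23).

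The 12 S phase and mitosis genes read beside Hat1 were higher in the same libraries: 11 of 12 were called higher at P24 and all 12 at P28, with medians of 1.69 and 3.10 on the log2 scale. Their summed level ran from 4680 to 9706 normalized reads in P24 controls and from 14967 to 20273 in P24 dM1/2, and from 1929 to 2398 and from 11647 to 14285 at P28. Their part in the Hat1 values was not tested.

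The difference of the genotype effects between anagen and telogen was tested directly over all 24 libraries, and 6 of the 10 members passed, where 30.2% of 14243 genes did. Hat1 was higher by 1.36 (SE 0.19, adjusted p = 4.3e-05) and Kat2a by 0.42 (SE 0.11, adjusted p = 0.00656) on the log2 scale. Kat6b was lower by -1.30 (SE 0.22, adjusted p = 0.00021), Kat2b by -1.08 (SE 0.20, adjusted p = 0.000441), Crebbp by -0.74 (SE 0.18, adjusted p = 0.00508) and Kat5 by -0.50 (SE 0.16, adjusted p = 0.0210). Stage, sex, depth and cell make-up cannot be told apart in this contrast. DP marker sums ran from 99304 to 388576 in anagen and from 22706 to 58789 in telogen libraries, and fibroblast sums from 4535 to 60769 and from 36276 to 168230. Their part was not tested. Between P24 and P28 no member's change in genotype difference passed (adjusted p from 0.307 up, limma, with 2 members at an unadjusted p under 0.05 and none called by edgeR or DESeq2), where 0.707% of 14139 genes did.

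Without P28 controls 1 and 3, the P28 differences were 1.72 for Hat1, 0.77 for Kat2a, -1.35 for Kat2b and -0.87 for Kat6b. Those of Crebbp and Kat6a were -0.88 and -0.47. The control kept, control 2, had the lowest summed DP markers of the P28 controls (138509, beside 261441 and 379304 in controls 1 and 3). Its summed fibroblast markers were the highest (60769, beside 34510 and 4535). The part of these sums in the values was not tested. In tests with this omission the lone control is assumed to vary like the dM1/2 libraries. In the stage contrast the same omission lost Kat5 (-0.43, adjusted p = 0.0838).

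Member length moved with some of these values. Over all genes, the median P28 difference fell with exon length, from 0.18 up to 2000 bases, through 0.07 and 0.01, to -0.18 above 8000 bases. At P24 it fell from 0.09 to -0.09. In telogen it rose with length, from -0.13 to 0.09 at P20 and from -0.03 to 0.04 at P60. The 4 members with the longest exons, Kat6b with 16826 bases, Ep300 with 14273, Crebbp with 13540 and Kat6a with 9180, all had negative P28 differences, and Hat1 and Kat2a, which rose, have 2886 and 3480 bases. The differences of the other members were -0.01 for Kat7 with 5536 bases, -1.09 for Kat2b with 4867, -0.40 for Kat5 with 3509 and 0.04 for Kat8 with 2891. After a smooth trend on exon length was removed in each library, an adjustment chosen after seeing the data, the P28 differences were -0.94 for Kat6b, -0.64 for Crebbp, -0.35 for Kat6a and -0.14 for Ep300, and of these Kat6b and Crebbp kept their calls (adjusted p = 0.00569 and 0.0140). Hat1 (1.56), Kat2a (0.64) and Kat2b (-1.10) kept theirs. In the stage contrast the adjusted values were -1.05 for Kat6b and -0.52 for Crebbp, in place of -1.30 and -0.74. Those of Hat1, Kat2a, Kat2b and Kat5 were 1.30, 0.38, -1.07 and -0.54, and all these stage calls were kept. Of the paralog ratios, that of Crebbp to Ep300 compares exons of similar length, while Kat2b is longer than Kat2a and Kat6b much longer than Kat6a. The part of length in these values was not tested.

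**Figure D4:**
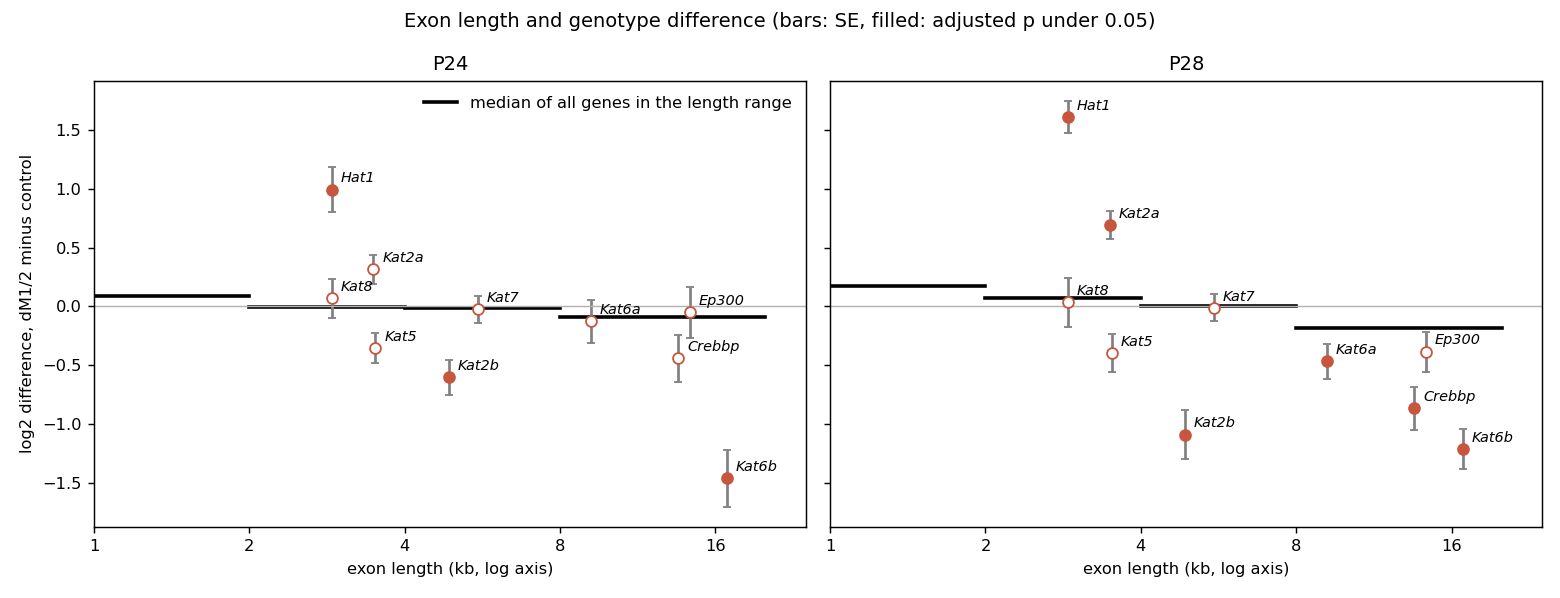
Log2 difference of dM1/2 minus control (vertical axis) against exon length in kb (log axis) for the 10 members at P24 and P28, with SE bars and filled points where the adjusted p is under 0.05, and black lines for the median of all genes in 4 length ranges. The lines fall from 0.18 to -0.18 at P28, and every member but Kat7 and Kat8 lies farther from them there than its SE.

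The partners of the members were read from 8 lists holding 87 genes. At P24, 13 of 87 were called higher (14.9%) and 8 lower (9.20%), and at P28 16 higher (18.4%) and 15 lower (17.2%). Of all genes 14.8% were higher and 11.8% lower at P24, and 20% and 15.6% at P28. The counts of each list below stand beside these shares. Among Hat1 partners and histone H3-H4 chaperones 5 of 9 were higher and none lower at each anagen age, with list medians of 0.43 and 0.57. Asf1b, a chaperone that receives new histones, had 59.2, 27.1 and 98.4 normalized reads in the P24 controls and 327, 244 and 471 in P24 dM1/2 (2.61, SE 0.46, adjusted p = 0.00665). At P28 it had 10.4, 9.61 and 17.4 in controls and 216, 270 and 283 in dM1/2 (4.29, SE 0.29, adjusted p = 0.000292). Chaf1b, a subunit of chromatin assembly factor 1, rose by 2.53 (SE 0.24) at P24 and 3.98 (SE 0.32) at P28.

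Among 20 SAGA and ATAC subunits, which hold Kat2a or Kat2b, none was higher and 3 lower at P24, and 1 was higher and 3 lower at P28. The lower ones were 15% of the list at each age, near the 11.8% and 15.6% of all genes. Tada3, the adaptor that links the enzyme to the complex, had 457, 450 and 362 normalized reads in the P24 controls and 170, 126 and 132 in P24 dM1/2 (-1.57, SE 0.18, adjusted p = 0.00179). At P28 it had 430, 419 and 471 in controls and 130, 132 and 171 in dM1/2 (-1.61, SE 0.16, adjusted p = 0.000800). Atxn7, a SAGA subunit of the deubiquitinase module, fell by 1.18 on the log2 scale at P28 (SE 0.22, adjusted p = 0.00707).

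Of 8 p300/CBP partners and readers 2 were lower at P24 and 3 at P28, and none higher. The coactivator Ncoa3 had 4943, 3619 and 5785 normalized reads in the P28 controls and 2435, 1370 and 1691 in P28 dM1/2 (-1.40, SE 0.26, adjusted p = 0.00698). Of 15 NuA4 subunits 1 was higher and 2 lower at P24, and 2 higher and 2 lower at P28. Ing3, a reader subunit of NuA4, fell by 1.03 on the log2 scale at P24 (SE 0.18, adjusted p = 0.00625). Of 9 BRPF and JADE scaffolds 1 was lower at P24, Jade1 (-0.82, SE 0.13, adjusted p = 0.00486), and 1 was higher and 2 lower at P28. Of 11 MSL and NSL subunits, which hold Kat8, 1 was higher at each age and 4 were lower at P28.

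Among 6 genes of acetyl-CoA supply 3 were higher at P24 and 2 higher and 1 lower at P28. Acss1, which makes acetyl-CoA from acetate in mitochondria, had 39.6, 25.0 and 26.2 normalized reads in the P28 controls and 143, 123 and 134 in P28 dM1/2 (2.13, SE 0.25, adjusted p = 0.00134), and rose by 1.51 (SE 0.21) at P24. Of 9 other genes named as histone acetyltransferases 3 were higher at P24 and 4 at P28, and none lower. At P20 and P60 no gene of these 8 lists was called.

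**Figure D5:**
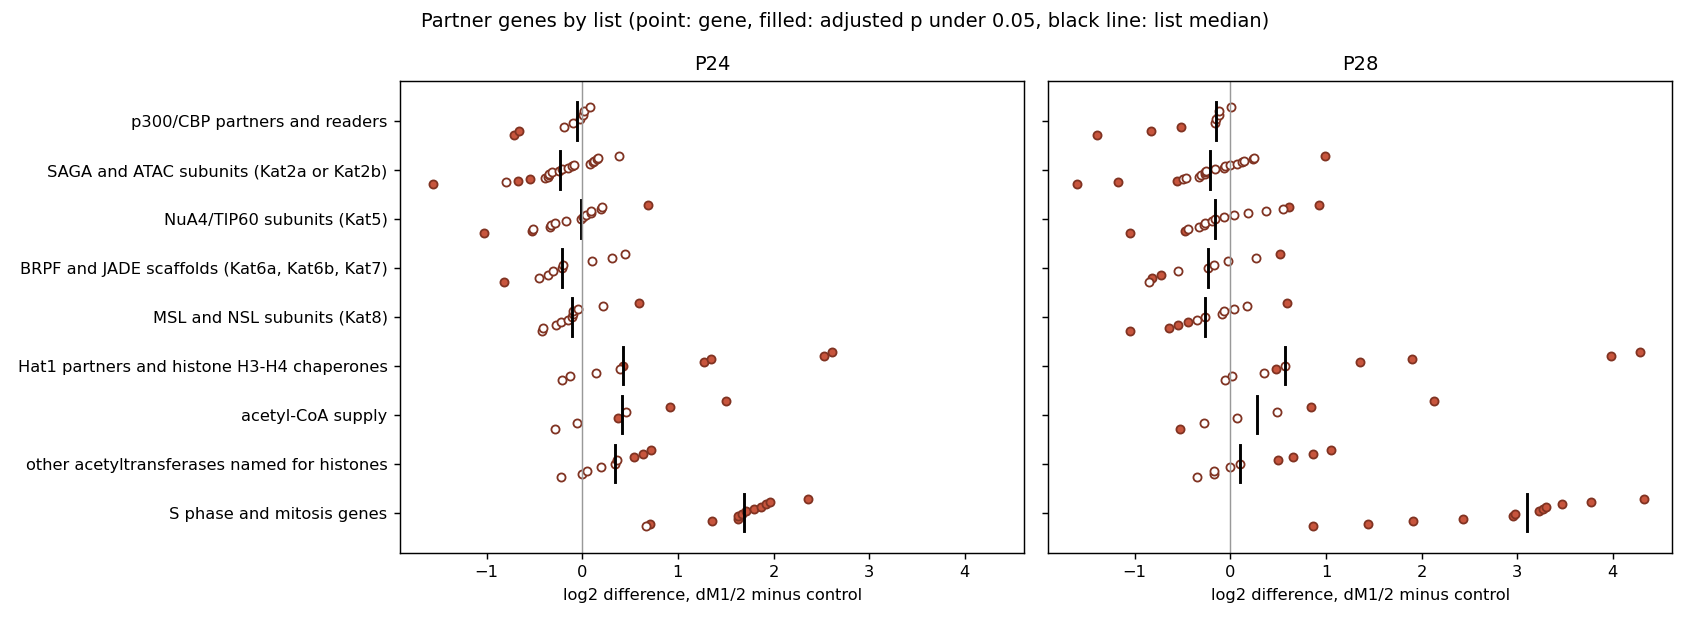
Log2 difference of dM1/2 minus control (horizontal axes) of each partner gene by list at P24 and P28, filled where the adjusted p is under 0.05, with a black line at the list median. The medians of the S phase and mitosis genes (1.69 and 3.10) and of the Hat1 partners and chaperones (0.43 and 0.57) lie to the right of 0. So do those of acetyl-CoA supply (0.41 and 0.28) and of the other acetyltransferases (0.34 and 0.11).

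For the 3 members called at both anagen ages, the genes of most similar profile were listed by Pearson r of log2(normalized reads + 1) over the 24 libraries, among 11975 genes whose mean reached 50 normalized reads. Those of Hat1 were Nrm (r = 0.96), Ppat (0.93) and E130012A19Rik (0.92). Those of Kat6b were Pogz (0.90), Cdc42bpg (0.90) and Gm17501 (0.90), and those of Kat2b were Snx9 (0.94), Coro2b (0.94) and Amotl2 (0.94). The libraries share groups, depth and sex, so these values describe likeness in these data.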

How the data were processed

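The 24 DP libraries hold 3 mice per genotype and age. The authors used Trimmomatic for trimming, TopHat2 for alignment to mm10, HTSeq for counts per gene (GRCm38.p4) and DESeq2 for scaling. The study's methods state versions for Trimmomatic and HTSeq. The DESeq2 version and the strand setting are not given in the sources used here. The deposited signal is a count of reads scaled by a size factor, set over all 24 libraries. The deposited fold changes and p-values of the authors' own comparisons were not used. Whole reads were recovered for 100% of values (tolerance 0.01 reads).

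The main test was limma 3.58.1 (trend, two-sided) on log2(normalized reads + 1), for genes whose mean reached 10 normalized reads, with Benjamini-Hochberg adjustment over all genes and a threshold of 0.05, run in R 4.3.3. The count test, edgeR 4.0.16 with TMM on the recovered reads, called 78 genes at P20, 3746 at P24, 4918 at P28 and none at P60. Further alternatives were DESeq2 1.42.0, other scalings, filters and thresholds, a replicate block and each library left out in turn. An adjustment for exon length (a lowess trend per library), the omission of P28 controls 1 and 3 and the ratio test over 2 ages were added after seeing the data. The fits were tested on simulated data. Paralog ratios used log2((A + 1)/(B + 1)) and exact permutation tests. Positions and exon lengths are from GENCODE M21 (GRCm38). Of 25755 genes, 25508 matched it.

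The members, lists and tests were chosen with earlier results of these data known. Named genes are the 10 members, Hdac1, Hdac2, up to 3 rises and 3 falls per anagen age from the partner lists, by size, past the threshold and without overlap, and the 3 most similar genes of members called at both anagen ages. No library was a copy of another. Deviations of same-numbered libraries had correlations from -0.40 to 0.34, not all over 0.1 at any age, so the numbers were not taken as pairs. P-values measure the spread between mice.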

Additional observations from a re-analysis of the deposited data

Results flagged for a closer look

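The genotype effect on 6 of the 10 members differed between the anagen and telogen ages, where that of 30.2% of 14243 genes did. This was a test of the difference itself (limma over 24 libraries, on the log2 scale, anagen effect minus telogen effect). The values were 1.36 for Hat1, 0.42 for Kat2a, -0.50 for Kat5, -0.74 for Crebbp, -1.08 for Kat2b and -1.30 for Kat6b. Sex moved with stage, as given above, and reads on genes ran from 35469841 to 49331751 in anagen and from 8171944 to 13369732 in telogen. Summed DP markers ran from 99304 to 388576 in anagen and from 22706 to 58789 in telogen. Stage, sex, depth and cell make-up cannot be told apart.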

How the results depend on the processing

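Of the members' calls at P24, P28 and in the stage contrast, those of Hat1 and Kat6b held under every alternative, and so did the P28 and stage calls of Kat2a and Kat2b and, apart from a threshold of 0.01 at P28, those of Crebbp. The stage call of Kat5 was lost at 0.01 and without P28 controls 1 and 3 (-0.43). The call of Kat6a at P28 was lost with most alternatives and that of Kat2b at P24 at 0.01 and with 4 single libraries left out. In the stage contrast Kat6a passed without P20 control 1, P24 control 1 or P28 dM1/2 1 (adjusted p = 0.0199, 0.0453 and 0.0442). The paralog ratios moved by less than 1 SD with pseudocount 10. Without P28 controls 1 and 3 the log2 difference of Kat6b to Kat6a at P28 moved from -0.75 to -0.40, by more than 1 SD.

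The number of genes called moved by over 1.5 times in these cases. At P20 (60 genes) it was 668 with DESeq2, 4 at an adjusted p under 0.01, 439 with the replicate block, 23 with a single fit over 24 libraries and 0 to 1530 with single libraries left out (members 0 to 2). The 1530 came without control 1, and 11, 6, 7, 5 and 0 without control 2, control 3 and dM1/2 1, 2 and 3. At P24 (3735) it was 1565 at 0.01, 2366 with the replicate block and 2057 to 4012 with single libraries left out, lowest without control 2 (2057), dM1/2 1 (2357) or dM1/2 3 (2365). At P28 (5018) it was 2638 at 0.01 and 3043 to 5788, lowest without control 1 (3267), dM1/2 2 (3043) or dM1/2 3 (3310). At P60 (0) it was 1 with pseudocount 10, 26 with DESeq2, 6 with the replicate block, 19 with a single fit and 0 to 2. In the stage contrast (4298) it was 2555 at 0.01, for the change from P24 to P28 (100) 151 with pseudocount 10, 595 with DESeq2, 4 at 0.01, 0 with the replicate block, 427 without P28 controls 1 and 3 and 8 to 167 with single libraries left out (8 to 23 without P24 control 1 or 3 or any dM1/2 library, 167 without P28 control 2), and over the ages of controls (6886) 3454 at 0.01. The cause was not tested.

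Values that changed sign were at most 0.28 in size after the change, and none was called. After the length adjustment these were Kat6b at P20 (-0.036), Ep300 at P24 (0.040), Kat8 at P28 (-0.021), Crebbp at P60 (-0.011) and Kat8 in the stage contrast (-0.039). With TMM on log2 CPM they were Crebbp at P60 (-0.0052) and Kat7 from P24 to P28 (-0.020), the latter also with edgeR (-0.020) and DESeq2 (-0.011). Without P28 controls 1 and 3 they were Kat7 at P28 (0.12) and, from P24 to P28, Kat5 (0.10) and Kat8 (0.28). With single libraries left out, the ranges at P20 were -0.061 to 0.27 for Kat6b and -0.019 to 0.42 for Kat8. At P24 they were -0.22 to 0.12 for Ep300, -0.23 to 0.023 for Kat6a, -0.085 to 0.031 for Kat7 and -0.012 to 0.12 for Kat8. At P28 they were -0.074 to 0.040 for Kat7 and -0.12 to 0.15 for Kat8, and at P60 -0.13 to 0.086 for Ep300, -0.056 to 0.14 for Crebbp, -0.014 to 0.18 for Kat2a and -0.12 to 0.0053 for Kat6a. Kat8 ran from -0.081 to 0.14 in the stage contrast. From P24 to P28 Kat5 ran from -0.14 to 0.047, Kat7 from -0.051 to 0.074 and Kat8 from -0.19 to 0.080.

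The replicate numbers were not taken as pairs, and the replicate block removed the call of Kat6a at P28 (adjusted p = 0.0944) and no other member's call. At P20 every control correlated best with the dM1/2 library of its own number. The telogen libraries were the shallowest, which limits what they can show. Controls of mixed genotype, sex that moves with stage and 3 mice per group limit all comparisons.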
